A study of Mus musculus with 5 samples.

Results

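A set of 10 immediate early genes was followed in sorted mouse hair follicle stem cells. Of these genes, 7 encode Fos or Jun subunits of the transcription factor AP-1. Polycomb repressive complex 1 (PRC1) was or was not removed from the cells by an induced deletion. The members were chosen by symbol: the Fos family (Fos, Fosb, Fosl1, Fosl2), the Jun family (Jun, Junb, Jund), Atf3, Egr1 and Ier2. All 10 were found among the 30840 features of the deposited table and all 10 were among the 22181 genes with enough counts to be tested. Every mouse was Ring1a-/- and Ring1b flox/flox and was treated topically with 1% RU-486 each day for 10 days, starting on postnatal day 50. The 2 Control libraries (numbered 2 and 3) carried nothing else, and the 3 PRC1 i2KO libraries (1, 2 and 3) also carried K15-CrePR1, a recombinase switched on by RU-486 and driven by the keratin 15 promoter. The 2 groups thus differ by the transgene as well as by the deletion, and the controls already lack Ring1a. Bulge cells of back skin were collected on postnatal day 70 by a gate on EpCAM, Sca1, α6-integrin and CD34, after 1 hour in trypsin at 37 °C. Nothing in the labels ties libraries of 1 group to different animals, and the p-values therefore measure only the spread between these libraries, which may be technical.

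AP-1 is a dimer of basic leucine zipper proteins, in which a Jun protein pairs with another Jun, with a Fos protein or with an ATF protein, and it binds the palindromic TPA response element. Immediate early genes are transcribed within minutes of a growth factor, stress or wounding signal, without new protein synthesis, and their messages are short-lived. In skin, AP-1 is known for its part in keratinocyte proliferation, differentiation and the response to injury.

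The promoters of Jun, Fosb and Fos are shown because Jun and Fosb had lower values in all PRC1 i2KO libraries and Fos did not. They are RefSeq windows of build GRCm38.p6, from 250 bases before to 50 after the annotated start, and 7 of the 10 members had one (not Fosl1, Egr1 and Ier2). Jun lies at chr4:95052173-95052472 on the minus strand, Fosb at chr7:19309996-19310295 on the minus strand and Fos at chr12:85473640-85473939 on the plus strand. The submitters' processing notes name build mm39, so these positions belong to RefSeq's build only. Capitals mark the motifs TGACNTCA, TGACG, GCGNGGGCG and TATAAA.
Jun: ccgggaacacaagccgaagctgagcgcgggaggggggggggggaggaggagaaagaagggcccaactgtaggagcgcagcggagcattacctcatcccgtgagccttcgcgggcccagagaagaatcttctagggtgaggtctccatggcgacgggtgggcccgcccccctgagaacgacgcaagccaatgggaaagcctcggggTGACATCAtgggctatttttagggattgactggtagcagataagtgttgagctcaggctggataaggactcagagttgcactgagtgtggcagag
Fosb: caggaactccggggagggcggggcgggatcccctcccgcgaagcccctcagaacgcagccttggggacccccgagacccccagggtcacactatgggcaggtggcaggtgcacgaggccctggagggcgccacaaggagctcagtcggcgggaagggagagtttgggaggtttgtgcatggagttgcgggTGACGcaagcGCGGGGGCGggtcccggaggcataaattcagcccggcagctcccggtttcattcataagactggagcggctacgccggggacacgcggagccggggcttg
Fos: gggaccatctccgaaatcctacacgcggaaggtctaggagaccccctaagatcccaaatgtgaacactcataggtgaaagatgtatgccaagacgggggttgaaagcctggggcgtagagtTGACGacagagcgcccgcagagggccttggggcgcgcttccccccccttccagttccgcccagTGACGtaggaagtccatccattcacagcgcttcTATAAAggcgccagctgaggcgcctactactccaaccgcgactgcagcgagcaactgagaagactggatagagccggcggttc
Motifs were searched on both strands. The Jun window held TGACATCA, a form of TGACNTCA (the cyclic AMP response element and the Jun-type response element), with its first base at -45. TGACNTCA was present in 8.83% of 32851 RefSeq windows of 300 bases. The Fosb window held TGACG, the core of that element, at -60 and the EGR-type motif GCGNGGGCG at -50. The Fos window held TGACG at -129 and -66 and the TATA motif TATAAA at -33. TGACG was present in 20.8% of all windows, GCGNGGGCG in 5.55% and TATAAA in 13.6%. Where N is G, TGACNTCA contains TGACG, so these motifs can overlap. No window of these 3 genes held TGANTCA, the TPA response element (7.81% of all windows), or the CArG box of serum response factor (1.63%), which says only that these letters are not in these windows.

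Libraries held between 11626006 counts (Control 3) and 43307694 counts (PRC1 i2KO 2). CPM are counts scaled to a common library total with TMM factors, and the deposited TPM values, which are per transcript length, are used to rank the members and to form ratios between them. RNA encoded in mitochondria took 21.2% and 27.4% of counts in Control 2 and 3 and 35.9%, 26.6% and 38.4% in PRC1 i2KO 1, 2 and 3. TPM values of nuclear genes move with that share, and its part in the differences below was not tested; the median log2 fold change of all genes was 0.0053 in the count test and -0.25 on the log2(TPM + 1) scale. The targeted genes Rnf2 (Ring1b), at 27.7 to 39.9 CPM over the 5 libraries, and Ring1, at 1.58 to 4.998 CPM, did not separate the groups; reads of deleted and retained exons are counted together, so this checks no label. Bulge markers were present in every library, with all 13 listed genes in the table and a summed level of 14430 to 18376 CPM. Within this list Cd34, an antigen of the gate, had 477 and 326 CPM in the controls and 298, 292 and 164 CPM in PRC1 i2KO 1, 2 and 3 (edgeR adjusted p = 0.422). Lhx2 and Lgr5 also lay below both controls in every PRC1 i2KO library (edgeR adjusted p = 0.349 and 0.359) and Krt14 above (0.240). With Cd34, 3 of the 13 thus lay below and 1 above, where 15.3% and 14.6% of all genes tested did. The other listed markers overlapped between groups. The part of these markers in the results below was not tested.

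Of the 10 genes, all but Fosl1 were at 18.2 TPM or more in every library. These levels were measured after the 1 hour in trypsin at 37 °C, and the part of that step in them was not tested. Egr1, a zinc finger transcription factor, stood highest at 1073 and 792 TPM in Control 2 and 3 and 522, 598 and 671 TPM in PRC1 i2KO 1, 2 and 3. It ranked between 26 and 73 among 17431 protein-coding genes in these libraries. Its lowest library stood above the highest of Fos, which ran from 283 to 461 TPM. Below Fos, the means over the 5 libraries were 246 TPM for Fosb, 221 for Atf3 and 169 for Jun, with ranges that overlapped. Fosb was above Atf3 in 3 of 5 libraries, and Atf3 above Jun in 3 of 5. A gap separated Jun, at 123 TPM or more, from the lower members. Jund had a mean of 59.6 TPM, Ier2 51.3, Fosl2 38.1, Junb 36.6 and Fosl1 27.0. Each of these overlapped its neighbour in range. Ier2, a nuclear protein of the immediate early response, and Jund were the most even of these 5 in TPM, and Fosl1, from 4.39 to 65.3 TPM, was the least even.

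**Figure D1:**
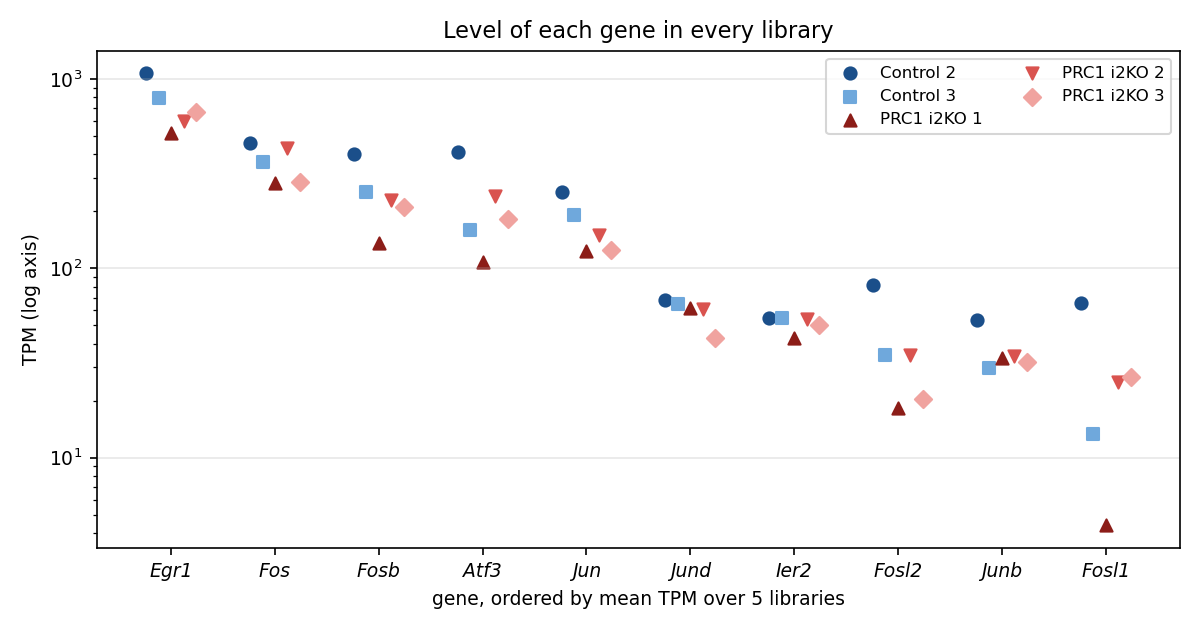
Level of each of the 10 genes in TPM (log axis) in the 5 libraries, ordered by the mean; each point is 1 library, Control in blue and PRC1 i2KO in red. Egr1 stands apart at 522 TPM or more, and Fosl1 spans 4.39 to 65.3 TPM.

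No member passed the test between PRC1 i2KO and Control (edgeR quasi-likelihood test, Benjamini-Hochberg adjusted p under 0.05). The smallest adjusted p was 0.314, for Jun. Over all genes tested, 0.126% passed as higher and 0.00% as lower. By limma on log2(TPM + 1), 8 genes passed as higher and 15 as lower. At an unadjusted p under 0.05, 2 of the 10 members were lower (Jun and Fosb) and 0 higher, where 3.51% and 7.43% of all genes were. The number of members with such a p, in either direction, was 0 without Control 2, 1 without Control 3 or PRC1 i2KO 1, and 3 without PRC1 i2KO 2 or 3. The share of all genes with such a p in those fits is not given, so these counts show only that the number moves. DESeq2 and limma-voom also called 0 members. Of the 10 members, 7 had a negative log2 fold change in the edgeR test. All 10 had one in the limma fit of log2(TPM + 1), with a members' median of -0.619. The median of all genes in that limma fit was negative too, at -0.245. How many of all genes were negative there is not given, so no excess can be read from the 10. In the edgeR test the median of the 10 was -0.33, beside 0.0053 over all genes tested. That median was -0.10 without Control 2 and -0.19 without PRC1 i2KO 1.

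Among the Fos family, Fosb had its 3 lowest values in the 3 PRC1 i2KO libraries. It encodes a Fos protein with a shorter splice form, ΔFosB, that lacks part of the activation domain. It had 1218 and 1036 CPM in Control 2 and 3 and 658, 859 and 948 CPM in PRC1 i2KO 1, 2 and 3. Its mean was 1127 ± 128 CPM in Control (SD, n = 2) and 821 ± 148 CPM in PRC1 i2KO (SD, n = 3). The log2 fold change was -0.46 ± 0.18 (SE), with a 95% interval of -0.87 to -0.045 and an edgeR adjusted p of 0.410.

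Fos, the cellular homologue of a retroviral oncogene, had 752 and 805 CPM in the controls and 741, 878 and 696 CPM in PRC1 i2KO 1, 2 and 3. The groups overlapped, with the highest and the lowest library both in PRC1 i2KO. The log2 fold change was -0.013 ± 0.16 (SE; edgeR adjusted p = 0.987), and its 95% interval, -0.37 to 0.34, allows a level between 0.775 and 1.27 times that of Control.

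Fosl2 and Fosl1 encode the Fos-related antigens Fra-2 and Fra-1, which lack the strong activation domain of Fos. Fosl2 had 299 and 188 CPM in Control 2 and 3 and 144, 226 and 130 CPM in PRC1 i2KO 1, 2 and 3. PRC1 i2KO 2 lay between the controls, and the other 2 lay below both (log2 fold change -0.55 ± 0.28, SE; edgeR adjusted p = 0.527; -0.17 without Control 2). In TPM the distance was wider, with 82.2 and 34.8 TPM against 18.2, 34.8 and 20.4 TPM. Dividing count by TPM gives the transcript length behind each value. This length, relative to the control mean and to the median gene of each library, was 0.976 and 1.07 for Fosl2 in the controls and 1.32, 1.39 and 1.14 in PRC1 i2KO, so the TPM values of Fosl2 were divided by a longer length in those libraries. For Junb it ran from 0.908 to 1.11 without separating the groups, and for the other 8 members from 0.991 to 1.01.

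Fosl1 had 84.3 and 23.3 CPM in Control 2 and 3 and 9.12, 40.4 and 51.4 CPM in PRC1 i2KO 1, 2 and 3. Its highest and lowest libraries differed by 9.25-fold, and the controls alone by 3.62-fold. The lowest value rests on 199 counts, with a 95% Poisson interval of 7.90 to 10.5 CPM that covers counting error only. The 95% interval of the log2 fold change ran from -2.20 to 0.84 around -0.68 ± 0.67 (SE; edgeR adjusted p = 0.774). Without Control 2 it was 0.53.

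In the Jun family, Jun, the main dimer partner of Fos, had 647 and 656 CPM in Control 2 and 3 and 501, 476 and 476 CPM in PRC1 i2KO 1, 2 and 3. The groups did not overlap, and libraries of a group differed little, by at most 1.01-fold among controls and 1.05-fold among PRC1 i2KO. The mean was 651 ± 6.57 CPM in Control (SD, n = 2) and 485 ± 14.5 CPM in PRC1 i2KO (SD, n = 3), or 0.744 times the control level with a 95% interval of 0.597 to 0.928. The log2 fold change of -0.43 ± 0.14 (SE) had an edgeR adjusted p of 0.314 and ranged from -0.45 to -0.41 with any 1 library left out.

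Junb, whose product is known to counteract Jun in some promoters, had 67.0 and 48.1 CPM in the controls and 60.9, 58.7 and 65.2 CPM in PRC1 i2KO 1, 2 and 3. All PRC1 i2KO libraries lay between the controls (log2 fold change 0.095 ± 0.22, SE; edgeR adjusted p = 0.923). Jund, the Jun gene with the steadiest expression in most tissues, had 85.1 and 110 CPM in the controls and 125, 95.8 and 80.2 CPM in PRC1 i2KO. The groups overlapped on both sides (log2 fold change 0.041 ± 0.24, SE; edgeR adjusted p = 0.973). The 95% interval of Jund, -0.50 to 0.58, includes a change of the size seen for Jun, and that of Junb, -0.40 to 0.59, ends just short of it.

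Atf3, a stress-induced partner of Jun proteins, had 626 and 331 CPM in Control 2 and 3 and 264, 458 and 414 CPM in PRC1 i2KO 1, 2 and 3. Control 3 lay below 2 of the 3 PRC1 i2KO libraries, so the groups overlapped. The log2 fold change was -0.34 ± 0.30 (SE; edgeR adjusted p = 0.748), and 0.20 without Control 2.

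Egr1, which serum response factor induces together with Fos, was the most abundant member. It had 2769 and 2756 CPM in Control 2 and 3 and 2153, 1919 and 2600 CPM in PRC1 i2KO 1, 2 and 3. The groups did not overlap, though PRC1 i2KO 3 came close to Control 3. The log2 fold change was -0.31 ± 0.15 (SE; edgeR adjusted p = 0.506), with an interval of -0.66 to 0.034. Ier2 had 61.9 and 84.5 CPM in the controls and 78.0, 77.0 and 85.3 CPM in PRC1 i2KO, with Control 2 lowest and Control 3 close to the highest (log2 fold change 0.13 ± 0.21, SE; edgeR adjusted p = 0.875).

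**Figure D2:**
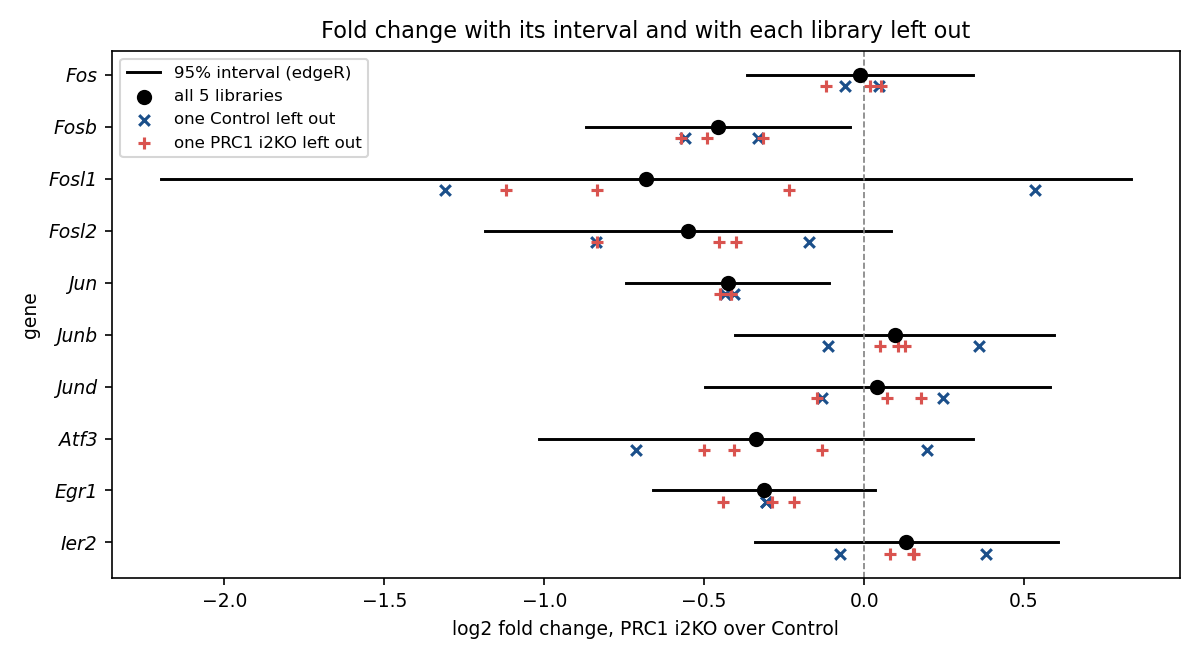
Log2 fold change of each gene, PRC1 i2KO over Control, from edgeR (black point) with its 95% interval (line); crosses and plus signs give the value with 1 Control or 1 PRC1 i2KO library left out. Jun stays between -0.45 and -0.41, and Fosl1 runs from -1.31 to 0.53.

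Jun, Fosb and Egr1 were thus the 3 of 10 members whose PRC1 i2KO values were all under the lower control, and 0 members had them all over the higher one. Over all genes tested, 15.3% lay below in this way and 14.6% above. Among the 2944 genes with a mean of at least 50 CPM, as for 9 of the 10 members, 13.7% lay below. In TPM the members below both controls were 5, Jund and Ier2 joining Jun, Fosb and Egr1, where 23.0% of all genes tested lay below and 7.01% above. Without Control 3 the count in CPM was 7, where 28.9% of all genes lay below the remaining control. Without PRC1 i2KO 2 it was 5, where 22.8% did. The count stayed at 3 without Control 2, PRC1 i2KO 1 or PRC1 i2KO 3, and the share of all genes in these settings is not given.

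The members did not share 1 profile across libraries. Control 2 was the highest library for 6 of 10 members (Fosb, Fosl1, Fosl2, Junb, Atf3 and Egr1), yet the lowest for Ier2. PRC1 i2KO 3 was the lowest for 4 (Fos, Fosl2, Jun and Jund) and PRC1 i2KO 1 for 3 (Fosb, Fosl1 and Atf3). The mean deviation of the members from their own mean log2 CPM was 0.31 in Control 2, -0.0085 in Control 3, -0.33 in PRC1 i2KO 1, 0.026 in PRC1 i2KO 2 and -0.0048 in PRC1 i2KO 3. By this mean, Control 2 and PRC1 i2KO 1 stood at the ends, and the other 3 libraries, of both genotypes, lay together near 0. Fosl1, with 1.37 and -1.84 in Control 2 and PRC1 i2KO 1, contributed most to this order. The members' median deviation, which 1 gene moves less, was 0.22 and 0.099 in Control 2 and 3. It was -0.14, -0.010 and 0.041 in PRC1 i2KO 1, 2 and 3. By the median, both controls thus lay above every PRC1 i2KO library.

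**Figure D3:**
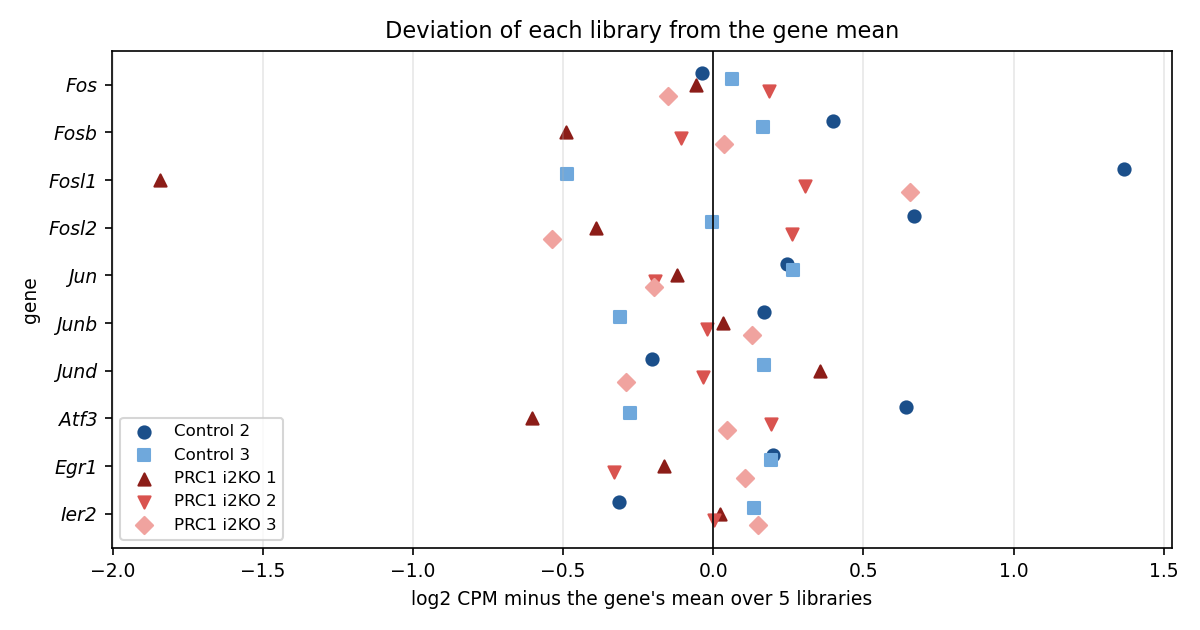
Log2 CPM of each gene in each library minus the mean of that gene over the 5 libraries; 1 point per library, Control in blue and PRC1 i2KO in red. For Jun both controls lie to the right of all PRC1 i2KO libraries, while Fosl1 spans -1.84 to 1.37.

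Fos and Jun proteins pair, so the make-up of each family was read within a library, where a ratio of TPM values does not depend on library scaling. Jun made up 67.7% and 66.9% of Jun family TPM in Control 2 and 3 and 56.4%, 61.2% and 62.7% in PRC1 i2KO 1, 2 and 3. The groups did not overlap in this share, which is formed from the Jun values and is not independent of their difference. With 10 ways to draw 2 controls from 5 libraries, a permutation of labels cannot reach the threshold, and no p is given for these ratios. Jund made up 18.1% and 22.7% of Jun family TPM in the controls and 28.3%, 24.8% and 21.3% in PRC1 i2KO, and Junb 14.2% and 10.4% against 15.4%, 13.9% and 16.1%; both shares overlapped between groups.

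Fos made up 45.5% and 54.8% of Fos family TPM in the controls and 64.1%, 59.9% and 52.7% in PRC1 i2KO 1, 2 and 3, and the groups overlapped. Fosb made up 39.9% and 38.0% against 30.7%, 31.8% and 38.7%. Fosl2 was at 8.12% and 5.22% in the controls and 4.12%, 4.83% and 3.76% in PRC1 i2KO, lower in all 3, with the change in its implied length given above. Fos and Fosb together held most of the family's transcripts in every library.

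The ratio of Fos to Jun was 1.82 and 1.92 in Control 2 and 3 and 2.30, 2.87 and 2.28 in PRC1 i2KO 1, 2 and 3, so Fos per Jun was above both control values in all 3 PRC1 i2KO libraries. The ratios of Junb, Ier2 and Jund to Jun separated the groups in the same direction, that of Jund by less than rounding shows (0.340 in both Control 3 and PRC1 i2KO 3). Junb per Jun was 0.210 and 0.156 in the controls and 0.273, 0.228 and 0.256 in PRC1 i2KO. Ier2 per Jun was 0.215 and 0.288 against 0.346, 0.361 and 0.401. The ratios of the other 5 members to Jun overlapped between groups. These ratios share the Jun values, and a gene of even level separates the groups when set over Jun: of all other genes tested, 29.5% had a ratio to Jun above both controls in every PRC1 i2KO library. Set over Fos in TPM, Fosl2 was the only one of 8 members to separate the groups, being lower in PRC1 i2KO. Its TPM values there were divided by the longer implied length given above. The share of all genes whose ratio to Fos separates the groups is not given. The ratio of the family totals overlapped, with 2.7 and 2.34 Fos family TPM per Jun family TPM in the controls and 2.02, 2.94 and 2.71 in PRC1 i2KO.

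**Figure D4:**
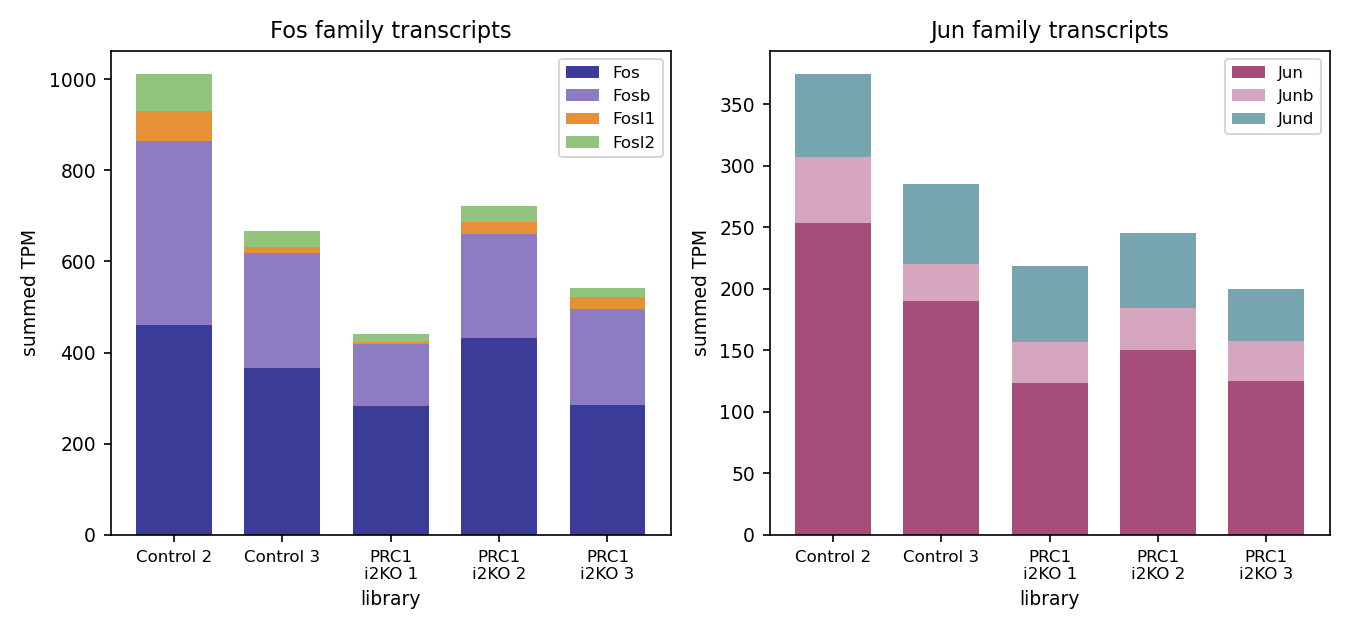
Summed TPM of the Fos family (left) and the Jun family (right) in each library, stacked by gene, both axes from 0. Summed Jun family TPM is 375 and 285 in the controls and 219, 246 and 200 in PRC1 i2KO 1, 2 and 3, and Fos and Fosb form most of the Fos family in every library.

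The members differ in gene structure. In GENCODE M21, Jun, Junb, Jund and Ier2 have coding transcripts of 1 exon, while Fos, Fosb, Fosl1, Fosl2, Atf3 and Egr1 have introns. In that annotation, Jun overlaps the antisense RNA gene Junos, Junb overlaps Prdx2 and Fosl1 overlaps Ccdc85b, each on the opposite strand. Junos had 0.947 to 4.33 CPM and Ccdc85b 1.14 to 4.04 CPM. Prdx2, a peroxidase gene, had 46.6 to 63.9 CPM. The sources used here do not say if counting used strand, so reads of Junb and Prdx2 may not have been told apart. Jund and Atf3 each overlap a gene on the opposite strand that was not analysed here.

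The genes around AP-1 were read from the same test, in lists drawn up from textbook knowledge, and 0 genes of these 5 lists passed it (edgeR adjusted p under 0.05). Limma-voom also called 0. DESeq2 on unfiltered counts, which called 920 genes of the whole table (858 on the counts edgeR tested, where edgeR called 28), called 6 of the listed genes higher, among them Socs3, Dusp6, Elk3, Mapk13 and Cd44, and 1 lower (Ptgs2, the cyclooxygenase gene, at 20.2 and 44.7 CPM in Control against 6.55, 15.7 and 12.2 CPM). The other basic leucine zipper genes that can pair with AP-1 proteins had 2 higher and 2 lower members of 23 tested at an unadjusted p under 0.05, where 7.43% of all genes were higher and 3.51% lower, shares that hold for the lists that follow too, and a median log2 fold change of 0.035. Those with an unadjusted p under 0.05 included Atf5, at 1.16 and 1.98 CPM in Control against 12.3, 3.38 and 4.37 CPM (edgeR adjusted p = 0.357), and Maf, at 267 and 265 against 209, 213 and 141 CPM (adjusted p = 0.425). In both genes, picked for their small p, the groups did not overlap, and they lay in opposite directions. Of the 23, 7 lay above both controls in every PRC1 i2KO library and 3 below, where 14.6% and 15.3% of all genes tested did.

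Of 46 other immediate early and early response genes, 23 had a positive and 23 a negative value, around a median of -0.0091 on the log2 scale (unadjusted, 3 higher and 5 lower). Socs3, a feedback inhibitor of cytokine receptors, had 34.9 and 46.1 CPM in the controls and 82.5, 77.6 and 89.6 CPM in PRC1 i2KO (1.04 ± 0.22, SE; edgeR adjusted p = 0.150). Dusp6, a phosphatase that switches off ERK, had 40.3 and 29.1 against 79.9, 58.2 and 101 CPM (1.20 ± 0.29, SE; adjusted p = 0.188). Ctgf, a matricellular gene of the early response, had 986 and 681 against 516, 522 and 320 CPM (-0.88 ± 0.24, SE; adjusted p = 0.240). Of the 46, 7 lay above both controls in every PRC1 i2KO library and 6 below, where 14.6% and 15.3% of all genes tested did. Immediate early genes as a class thus lay on both sides. The groups did not overlap in the 3 genes named, which were picked as those of smallest p.

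The kinases and serum response factor genes that act upstream had 23 positive values of 29 and a median of 0.25 (unadjusted, 3 higher and 1 lower). Positive values were found in 11172 of all 22181 genes tested. Elk3, an ETS partner of serum response factor, had 2.54 and 2.22 CPM in the controls and 30.7, 21.5 and 9.90 CPM in PRC1 i2KO (3.11 ± 0.55, SE; edgeR adjusted p = 0.0984). Mapk13, a p38 kinase of epithelia, had 17.8 and 22.5 against 43.5, 48.0 and 36.5 CPM (adjusted p = 0.189), and Map2k7, which activates the JNK kinases that phosphorylate Jun, had 59.6 and 52.4 against 35.7, 34.5 and 43.1 CPM (adjusted p = 0.394).

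Of the genes known as AP-1 targets in epidermis, 18 were tested and 16 had a positive value, with a median of 0.63 (unadjusted, 3 higher and 0 lower, beside 7.43% and 3.51% of all genes). Cd44, a hyaluronan receptor, had 170 and 185 CPM in the controls and 368, 242 and 381 CPM in PRC1 i2KO (0.90 ± 0.22, SE; edgeR adjusted p = 0.200). Ccnd1, encoding cyclin D1, had 108 and 105 against 206, 153 and 146 CPM (adjusted p = 0.284), and Vegfa, an angiogenic growth factor gene, 11.96 and 11.90 against 23.6, 16.7 and 35.9 CPM (adjusted p = 0.329). The targets' median and that of the 10 members thus had opposite signs, a contrast that was not tested. Over all genes tested, 11172 of 22181 values were positive. Some targets were barely counted, with Sprr1b, Il1a and Krt6b at 2.75 CPM or less in every library. Lor was at 145 CPM in PRC1 i2KO 2 and at 29.7 CPM or less in the other libraries. The summed level of the targets was 1017.5 and 896 CPM in the controls and 1287, 1267 and 1043 CPM in PRC1 i2KO 1, 2 and 3. Markers of interfollicular epidermis share Ivl and Lor with this list. They summed to 827 and 796 CPM in the controls and 811, 2597 and 1367 CPM in PRC1 i2KO 1, 2 and 3. Their part in the targets' values was not tested. The 19 heat shock genes, another group that responds to stress, had a median of 0.092 (unadjusted, 2 higher and 0 lower). Hspe1, Hspd1 and Hspa8 had the smallest p, with adjusted p of 0.427, 0.438 and 0.514, and all 3 were higher on average in PRC1 i2KO.

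**Figure D5:**
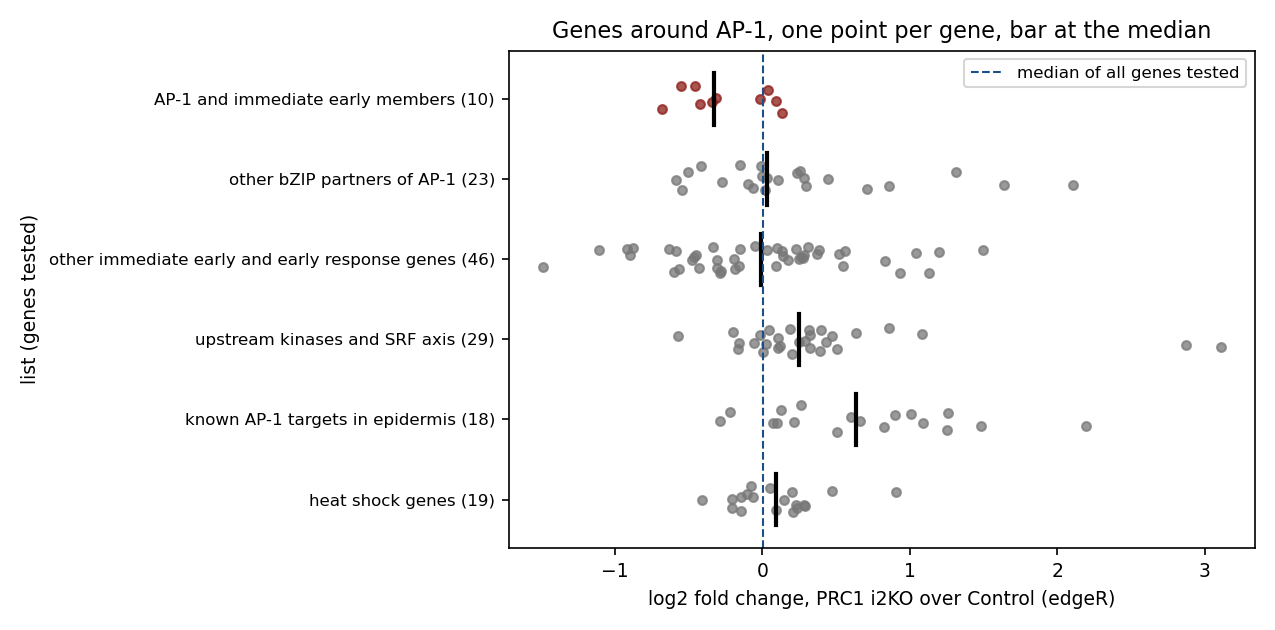
Log2 fold change (edgeR) of each tested gene in 6 lists, PRC1 i2KO over Control; the bar is the list's median and the dashed line the median of all genes tested. Medians run from -0.33 for the 10 members to 0.63 for known AP-1 targets, and no gene shown passed the adjusted threshold.

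The genes most like the members' mean profile over the 5 libraries were sought by the Euclidean distance between centred log2 CPM values, among 8904 other genes with a mean of at least 10 CPM. Clk1 (distance 0.0872), Lrpprc (0.0936), Agrn (0.0958), Dhx15 (0.0959) and Zfp160 (0.0989) were closest. Clk1, a kinase of splicing factors, had 472 and 355 CPM in the controls and 304, 379 and 384 CPM in PRC1 i2KO. These genes were closer to the mean profile than any member was, the members' own distances running from 0.289 (Fosb) to 2.04 (Fosl1). With 5 libraries this is a description only.

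Markers of cell types outside the epithelium were summed per library. Summed fibroblast markers (8 of 8 in the table; Col3a1, Lum and Twist2 below 1 CPM in every library) were at 25.5 and 24.8 CPM in the controls and 63.3, 71.4 and 67.3 CPM in PRC1 i2KO. Immune markers (9 of 10) were at 8.89 and 15.9 against 25.5, 16.0 and 23.7 CPM, endothelial and mural markers (4 of 5) at 13.01 to 22.8 CPM and melanocyte markers (4 of 5) at 4.08 to 9.03 CPM in all libraries. Ly6a, encoding the Sca1 antigen of the gate, had 1.62 and 0.793 CPM in the controls and 3.12, 4.78 and 4.93 CPM in PRC1 i2KO. Within the fibroblast list, Pdgfra had 3.37 and 2.22 against 32.5, 25.4 and 16.0 CPM, while Col1a2 overlapped at 16.8 and 15.7 against 13.3, 20.3 and 20.8 CPM. The fibroblast sum and Ly6a were thus above both controls in the libraries where Jun, Fosb and Egr1 lay lower, and their part was not tested. In bulk RNA of sorted cells, fewer cells that express a gene and less RNA per cell cannot be told apart.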

How the data were processed

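Polyadenylated RNA of 5 libraries was measured, each from 50000 sorted cells, with 50 ng of RNA of integrity number above 8 entering library preparation, per the labels' protocols. The authors deposited expected counts, of which 60.4% were not whole, and TPM values, already divided by transcript length. Build mm39 and the tools RSEM 1.3.3, STAR 2.7.9a and DESeq2 1.38.2 are given without roles in the submitters' processing notes. Columns were matched to samples by title; their descriptions call Control 2 and 3 C1 and C2.

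Counts were rounded and tested over all genes by the quasi-likelihood F test of edgeR 4.0.16 (R 4.3.3) after filterByExpr and TMM scaling, group being the only term. Adjusted p-values (Benjamini-Hochberg) under 0.05 were called. Standard errors are the log2 fold change over the root of F. Alternatives were DESeq2 1.42.0 (on unfiltered and on the filtered counts), limma 3.58.1 (voom, and log2(TPM + 1) with at least 1 TPM in 2 libraries), RLE factors, no filter, no mitochondrially encoded genes, replicate blocks and leaving out each library. The edgeR and limma fits were tested on simulated data. Members and lists were chosen with earlier results of these data known. All members were named, and from each pathway list the 3 genes of smallest p; marker lists are given as sums. Of the genes this rule names, 1 is not reported here. Batf, Batf2, Npas4, Sprr2a1, Mmp10, Mmp13, Il6, Il1b, Lyz2, Cdh5 and Mlana were not analysed here. The total counts limit precision, and counting intervals cover counting error only.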

Additional observations from a re-analysis of the deposited data

How the results depend on the processing

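No member passed the threshold under any of the 16 alternatives run, the smallest adjusted p being 0.114 (Jun, DESeq2 on the filtered counts). Fosb, Fosl2, Jun and Egr1 kept a negative value in all 16. The number of genes called over the whole table, 28 by edgeR, was 920 with DESeq2 on unfiltered counts (754 higher, 166 lower), 858 with DESeq2 on the filtered counts (712 higher, 146 lower; added after seeing the data), 152 by edgeR with no filter on low counts, 4 with limma-voom, 69 on log2(TPM + 0.1) (26 higher, 43 lower) and 7, all lower, on log2(TPM + 1) with no filter, and 4 to 43 with 1 library left out. The members' median log2 fold change was -0.619 on log2(TPM + 1), with or without a filter, -0.620 on log2(TPM + 0.1), and -0.405 to -0.103 with 1 library left out. The number of members below every control kept was 5 in TPM and 3 to 7 with 1 library left out. The number with an unadjusted p under 0.05 was 4 with limma-voom and 0 on log2(TPM + 1) and log2(TPM + 0.1) with the filter. The share of all genes with such a p in these settings is not given, so no excess can be read from these counts. On log2(TPM + 1) Junb, Jund and Ier2 changed sign, to -0.251, -0.278 and -0.162, and on log2(TPM + 0.1) to -0.256, -0.282 and -0.165. Over all genes, the median log2 fold change also moved, to -0.245 on log2(TPM + 1) with the filter and -0.117 without it. It was -0.306 on log2(TPM + 0.1), beside 0.0053 in the count test. The cause of these moves was not tested. Fos, near 0, changed sign with DESeq2 on unfiltered counts (7.91e-05), no filter (0.00171), limma-voom (0.0100) and the replicate blocks by title and description (0.00655 and 0.0518). With 1 library left out Fos ran from -0.119 to 0.0542, Fosl1 from -1.31 to 0.534, Junb from -0.114 to 0.360, Jund from -0.148 to 0.246, Atf3 from -0.714 to 0.196 and Ier2 from -0.0741 to 0.381; where 1 control remained, it is assumed to vary like the other group. The replicate block by title also turned Fosl1 (0.0210) and Jund (-0.144), gave a members' median of -0.104 and called 165 genes; the block by description called 10. Same-numbered libraries by title had correlations of deviations of 0.111 and 0.0724, and the labels do not say that a number marks a shared animal or day.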
